A study of Canis lupus familiaris with 30 samples.

Results

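SLC2A1, GAPDH and LDHB are 3 genes of glucose uptake and glycolysis, followed here in blood mononuclear cells of dogs on 2 diets. The members were all non-control probes whose RefSeq transcript belongs to one of these genes: 10 probes of 43603, which stand for 3 of the 1088 named genes tested, with 2 for SLC2A1, 7 for GAPDH and 1 for LDHB. All 10 passed the filter on dim probes, which asked for 7 or more of the 60 channels to read clearly over background. Adult dogs ate nothing but their assigned diet for 9 weeks: 7 dogs got a raw red meat diet high in protein and fat (meat), and 8 dogs got a premium kibble containing carbohydrate (kibble). Both diets were sampled at week 0, the start of the experiment, and at weeks 3, 6 and 9, which gives 8 groups. Breed, age and the food eaten before week 0 are not given in the sources used here. The labels state 6 biological replicates, but not which dog's RNA lay on which array, so p-values measure the spread between arrays, which may share dogs.

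SLC2A1 encodes GLUT1, a transporter through which cells take up glucose along its gradient. GAPDH oxidises glyceraldehyde 3-phosphate in the middle of glycolysis, and its transcript is often used to normalise expression. LDHB encodes the H subunit of lactate dehydrogenase, which interconverts pyruvate and lactate at the end of the pathway. Resting lymphocytes use little glucose, and activated T cells raise glucose uptake and glycolysis.

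Each of the 30 arrays compared 2 groups, 1 labelled with Cy3 and the other with Cy5. There were 14 arrays of meat against kibble in the same week (3 each at weeks 0 and 3, and 4 each at weeks 6 and 9). A further 16 arrays set a later week against an earlier one within a diet: 4 of week 9 against week 0 and 4 of week 6 against week 3 for each diet. The number of probes well above background ran from 20085 to 42703 per array for Cy3 and from 19416 to 43411 for Cy5. The first kibble and the first meat array of week 9 against week 0, both on slide 1, held the lowest and the highest of these counts, and member values without them are given where they differ. Arrays of meat against kibble from different weeks were on different slides, so week and slide cannot be told apart in the single-week comparisons. Markers of the sampled cells were measured well above background in all 60 channels: CD4, CD28 and CD40LG of T cells, MS4A1 of B cells, and CD163, CTSS, CYBB and TLR4 of monocytes. Platelet and neutrophil genes were also above background, in all 60 channels for ITGA2B, GP1BA and S100A8. In RNA of mixed cells, fewer cells of a type and less RNA per cell cannot be told apart.

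The probes differed in brightness, given here as the mean log2 intensity over arrays. The SLC2A1 probes A_11_P121581 and A_11_P0000026893 stood at 8.88 and 7.27, and the dimmer one was well above background in 58 of 60 channels. The LDHB probe A_11_P225198 stood at 13.05, brighter than 96.1% of the genes and transcripts tested. The GAPDH probes stood between 13.12 (A_11_P053856) and 15.81 (A_11_P059521), and 0 spots on the arrays were marked as saturated. The brightest probe of a gene represents it below, and the other probes are given beside it. Levels of different probes are not comparable as transcript amounts.

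The first question was how the diets differed while the dogs ate them, as the mean of weeks 3, 6 and 9. SLC2A1 and LDHB were higher and GAPDH was lower on meat than on kibble. Fold differences were small: 1.26 for SLC2A1, 1.29 for LDHB and 0.844 for GAPDH, meat over kibble. The transporter and the lactate dehydrogenase subunit thus lay on one side of kibble and the glycolytic enzyme on the other. All 3 members passed the test in this comparison, in which 14.9% of 25951 genes and transcripts were called at an adjusted p under 0.05. By direction, 6.96% were called higher and 7.96% lower, so that a call is common here. The members were chosen with earlier results of these data known, so the share of them called cannot be weighed against these shares.

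On the arrays of meat against kibble the SLC2A1 log2 ratio was 0.56, -0.04 and 0.45 at week 3. At week 6 it was -0.02, 0.72, 0.06 and 0.74, and at week 9 it was 0.03, 0.16, 0.31 and 0.21. It was above 0 in 9 of these 11 arrays, and the 2 negative values lay close to 0. The fitted difference was 0.33 ± 0.076 on the log2 scale (SE; 95% interval 0.17 to 0.48; limma, adjusted p = 0.00423). The ratio depended on which diet carried which dye. With meat in Cy5 it was 0.21 to 0.74 over 5 arrays (median 0.56), and with meat in Cy3 it was -0.04 to 0.45 over 6 arrays (median 0.042). The fit therefore carries a dye term for each gene, which for SLC2A1 was 0.20 ± 0.053 toward Cy5 (adjusted p = 0.00799). The mean of both dye orders was 0.31.

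The other SLC2A1 probe, A_11_P0000026893, was also above 0 in 9 of 11 arrays, with a lowest ratio of -0.031, a median of 0.11 and a highest of 0.41. Its fitted difference was 0.13 ± 0.057 (95% interval 0.015 to 0.25) and did not pass the test (adjusted p = 0.123). The dye orders ran the other way at this probe, with a median of 0.0093 with meat in Cy5 and of 0.18 with meat in Cy3. Over the 30 arrays the log ratios of the 2 probes correlated at r = 0.60, as a description across arrays that share dyes and slides. With the mean of both probes in place of the brighter one the difference was 0.23 (adjusted p = 0.00671).

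For LDHB the ratios of meat over kibble were 0.23, 0.80 and 0.42 at week 3. At week 6 they were 0.40, 0.46, 0.75 and 0.10, and at week 9 they were 0.37, 0.26, -0.11 and 0.67. In 10 of 11 arrays LDHB was higher on meat, and the exception was 1 array of week 9. The fitted difference was 0.37 ± 0.081 (95% interval 0.20 to 0.53, adjusted p = 0.00279). Here the dye term ran toward Cy3, at -0.23 ± 0.057 (adjusted p = 0.0036). With meat in Cy5 the 5 ratios ran from -0.11 to 0.67 and with meat in Cy3 the 6 ratios ran from 0.26 to 0.80. LDHB has 1 probe on the array, so no second probe bears on it.

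GAPDH was lower on meat in 9 of 11 arrays. Its ratios were -0.61, -0.50 and -0.31 at week 3, and -0.12, -0.14, -0.34 and -0.26 at week 6. At week 9 they were -0.25, -0.64, 0.31 and 0.046, with both positive values on the arrays that had meat in Cy5. The fitted difference was -0.25 ± 0.084 (95% interval -0.42 to -0.073, adjusted p = 0.0484), close to the threshold. The call was lost without any 1 of 18 of the 30 arrays, with an adjusted p of up to 0.189 (-0.19 without the week 3 array that had meat in Cy5). With array medians in place of loess the difference was -0.17 (adjusted p = 0.456).

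**Figure D1:**
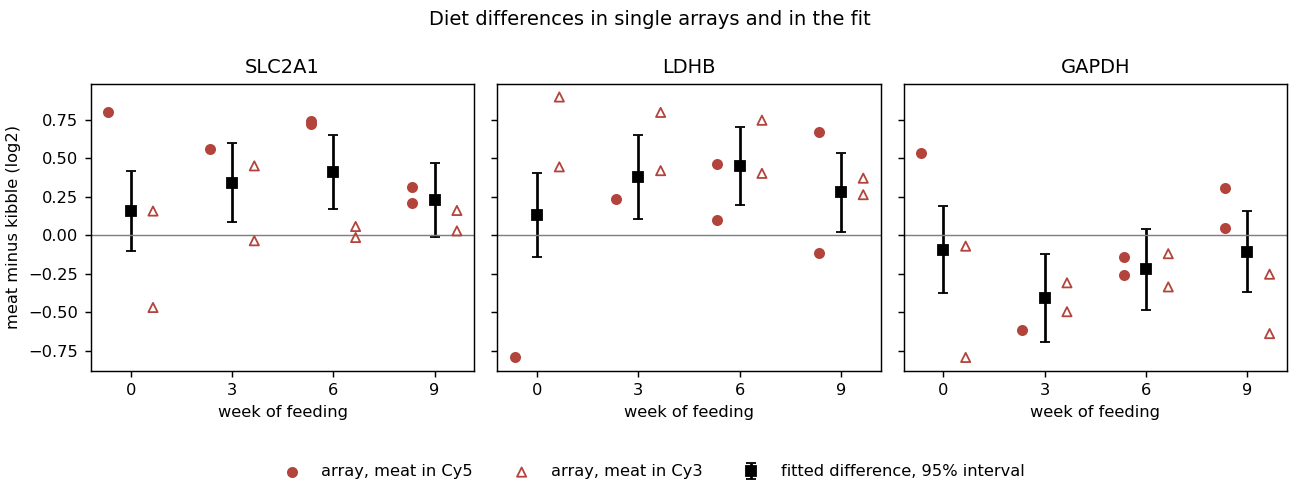
Log2 ratio of meat over kibble for SLC2A1, LDHB and GAPDH (brightest probe) by week of feeding; each circle is an array with meat in Cy5, each triangle an array with meat in Cy3, and squares are fitted differences with 95% intervals. At weeks 3, 6 and 9 SLC2A1 was above 0 in 9 of 11 arrays, LDHB in 10 of 11 and GAPDH below 0 in 9 of 11, and the 3 arrays of week 0 spread most.

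All 7 GAPDH probes had a negative fitted difference, from -0.25 to -0.16 with a median of -0.23. Of the 7, 3 passed the test (15.7% of all 31692 probes did): A_11_P059521, A_11_P053321 (-0.24 ± 0.082, adjusted p = 0.0434) and A_11_P052601 (-0.25 ± 0.083, adjusted p = 0.044). The calls of A_11_P053321 and A_11_P052601 were lost under 12 and 16 of 45 alternatives. The smallest difference was that of A_11_P053311 (-0.16 ± 0.11, adjusted p = 0.384), which was below 0 in 5 of 11 arrays. The 4 brightest probes, at 15.62 to 15.81, had differences of -0.23 to -0.25, and the 3 dimmer ones, at 13.12 to 14.14, had differences of -0.16 to -0.20. Their ratios moved together over the 30 arrays, with r of 0.89 to 1.00 over 21 pairs of probes (median 0.95). The probes read 1 transcript in the same RNA, so they are no replicates of the diet. With the mean of all 7 probes the difference was -0.22 (adjusted p = 0.092) and was not called.

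**Figure D2:**
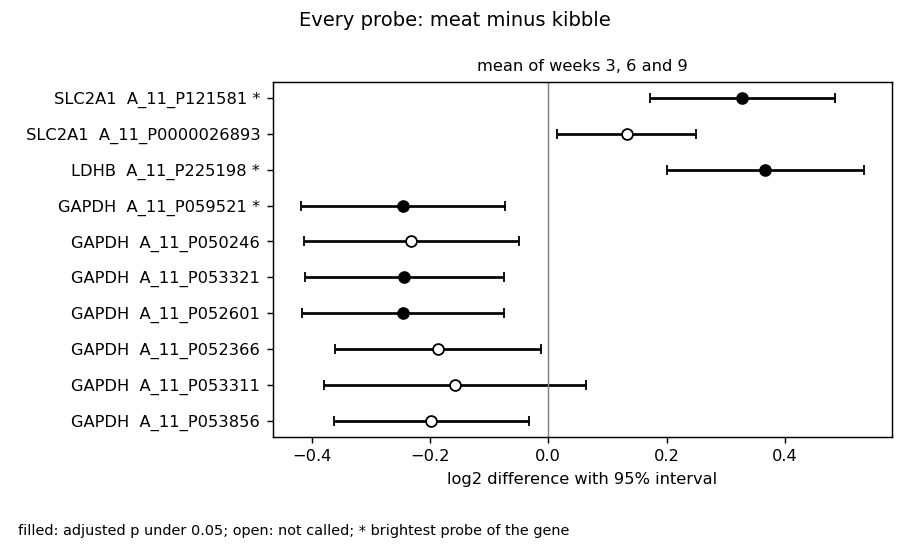
Fitted meat minus kibble difference (log2, mean of weeks 3, 6 and 9) with its 95% interval for each of the 10 probes; filled points passed at an adjusted p under 0.05, and a star marks the brightest probe of a gene. Both SLC2A1 probes and the LDHB probe lie above 0 and all 7 GAPDH probes below it.

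In single weeks the members kept these directions, and the differences at week 6 were the only ones called. At week 6, SLC2A1 was higher on meat by 0.41 ± 0.12 (adjusted p = 0.0332) and LDHB by 0.45 ± 0.12 (adjusted p = 0.0293), in a comparison with 6.23% of genes and transcripts called (1617, and 138 to 2256 without single arrays). GAPDH differed by -0.22 ± 0.13 (adjusted p = 0.364). SLC2A1 was not called without either of the 2 arrays of week 6 with meat in Cy5, when the difference was 0.38 or 0.37, with an adjusted p of 0.174 or 0.145. LDHB lost its call without either of those arrays or without 1 of the other 2, at adjusted p of 0.0627 to 0.206. From the 4 arrays of week 6 alone neither gene was called (0.38 with adjusted p = 0.105 for SLC2A1, and 0.43 with adjusted p = 0.13 for LDHB). The other SLC2A1 probe, A_11_P0000026893, was not called at week 6, with a difference of 0.19 ± 0.087 (adjusted p = 0.222). Nor was it called at week 3 (0.097 ± 0.094, adjusted p = 0.581) or at week 9 (0.11 ± 0.087, adjusted p = 0.699).

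At week 3 the differences were 0.34 ± 0.13 for SLC2A1 (adjusted p = 0.102), 0.38 ± 0.13 for LDHB (adjusted p = 0.0875) and -0.41 ± 0.14 for GAPDH (adjusted p = 0.0758). None was called, against 6.07% of all genes and transcripts. LDHB was called without 1 week 9 array with meat in Cy5 (0.40, adjusted p = 0.0354) or without the week 0 array with meat in Cy5 (0.37, adjusted p = 0.0483), and GAPDH with array weights (-0.41, adjusted p = 0.0493). Genes and transcripts called at week 3 numbered 1575, and 215 to 2064 without single arrays. At week 9 the differences were 0.23 ± 0.12 for SLC2A1 (adjusted p = 0.507), 0.28 ± 0.12 for LDHB (adjusted p = 0.417) and -0.11 ± 0.13 for GAPDH (adjusted p = 0.833), where 0.593% were called. Without single arrays the LDHB difference ran from 0.075 (without 1 array of week 9 with meat in Cy5) to 0.36. Week 9 was not tested against weeks 3 and 6, with which it shares no array.

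The same comparison at week 0 shows how far the groups lay apart at the start. SLC2A1 ratios of meat over kibble were 0.16, 0.80 and -0.47, LDHB ratios were 0.90, -0.79 and 0.44, and GAPDH ratios were -0.79, 0.53 and -0.071. Each gene had ratios on both sides of 0, and at these brightest probes the spread exceeded that of any later week. At SLC2A1 probe A_11_P0000026893 it did not, with ratios of -0.089 to 0.28 at week 0 and -0.031 to 0.41 at week 3. The fitted differences were 0.16 ± 0.13 for SLC2A1 (adjusted p = 0.848), 0.13 ± 0.13 for LDHB (adjusted p = 0.921) and -0.093 ± 0.14 for GAPDH (adjusted p = 0.97). None of the members was called at week 0, where 0.312% of all genes and transcripts were. LDHB and GAPDH turned sign with the 3 arrays of that week alone, at -0.062 and 0.05.

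Whether the diet difference after the start exceeded that at week 0 was tested directly. The change was 0.17 ± 0.14 for SLC2A1 (95% interval -0.11 to 0.45), 0.24 ± 0.14 for LDHB (-0.062 to 0.53) and -0.15 ± 0.15 for GAPDH (-0.46 to 0.16). No member passed (adjusted p = 0.784, 0.676 and 0.852 in that order of genes), and limma called 0 of 25951 (0%), with 2347 at an unadjusted p under 0.05. It called 240 without 1 of the week 0 arrays with meat in Cy3 and 1 without a kibble array of week 9 against week 0. The intervals hold 0 as well as the full differences given above, so the week 0 arrays do not separate a difference present at the start from one that arose on the diets.

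Changes over time were read within each diet. Later weeks were in Cy3 on every meat array and in Cy5 on every kibble array, so a single ratio here holds the dye effect, which the fit takes out through the diet arrays. The arrays over time (slides 1 to 4) were scanned in session 1 and the diet arrays (slides 5 to 8) in session 2. The main fit used the same dye term for both sessions. On meat, the 4 ratios of week 9 over week 0 were 0.30, -0.68, -0.17 and -0.59 for SLC2A1, 0.0096, 0.56, 0.30 and 0.20 for LDHB, and -0.035, -1.03, -0.43 and -0.26 for GAPDH. On kibble they were -0.17, 0.013, 0.13 and -0.23 for SLC2A1, -0.36, -0.27, -0.47 and -0.12 for LDHB, and 0.22, -0.17, -0.19 and -0.49 for GAPDH. LDHB thus lay above 0 on all meat arrays and below 0 on all kibble arrays. Once the dye term was taken out, LDHB differed by 0.054 ± 0.12 on meat (adjusted p = 0.866) and -0.092 ± 0.12 on kibble (adjusted p = 0.704).

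GAPDH was the member with the largest fitted change from week 0 to week 9. Its brightest probe differed by -0.30 ± 0.13 on meat (adjusted p = 0.152) and by -0.29 ± 0.13 on kibble (adjusted p = 0.134), and neither passed. In these comparisons 8.01% of all genes and transcripts were called on meat (2079, and 274 to 2659 without single arrays) and 13.6% on kibble (3533, and 2083 to 3797). Without the first 2 arrays of slide 1, an alternative chosen after seeing the data, both were called, at -0.44 on meat (adjusted p = 0.0326) and -0.42 on kibble (adjusted p = 0.0374). On meat GAPDH was also called with array weights (-0.37, adjusted p = 0.0486) and without 1 week 0 array with meat in Cy3 (-0.39, adjusted p = 0.0416). On kibble it was also called with array medians in place of loess (-0.73, adjusted p = 0.0028) and from the authors' deposited log2 ratios (-0.36, adjusted p = 0.0325). Every GAPDH probe had a negative difference, from -0.45 to -0.25 on meat and from -0.63 to -0.25 on kibble. On kibble 3 of the 7 probes passed: A_11_P053311 (-0.63 ± 0.16, adjusted p = 0.00943), A_11_P053856 (-0.43 ± 0.12, adjusted p = 0.0157) and A_11_P052366 (-0.40 ± 0.13, adjusted p = 0.032). Over all probes 15.1% were called there. These are the 3 dimmest GAPDH probes, and on meat, where 8.26% of all probes were called, 0 of 7 passed in limma (5 at an unadjusted p under 0.05), with adjusted p from 0.0701 to 0.26. The call of A_11_P052366 on kibble was lost under 7 of 44 alternatives.

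SLC2A1 differed by -0.14 ± 0.12 on meat (adjusted p = 0.559) and by -0.21 ± 0.12 on kibble (adjusted p = 0.243) between week 9 and week 0. With array medians in place of loess it was called on kibble (-0.41, adjusted p = 0.0349). The change on meat minus the change on kibble was 0.074 ± 0.14 for SLC2A1, 0.15 ± 0.15 for LDHB and -0.014 ± 0.16 for GAPDH, with adjusted p of 0.846 or more. In this interaction limma called 0 of 25951 (0%), with 2041 at an unadjusted p under 0.05.

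**Figure D3:**
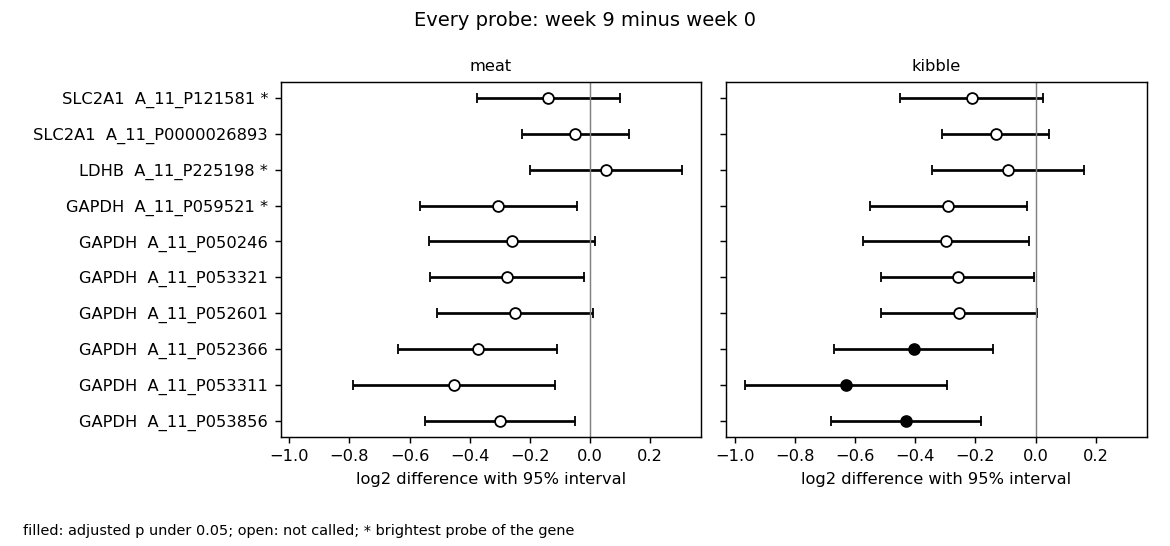
Fitted difference of week 9 minus week 0 (log2) with its 95% interval for each of the 10 probes, on meat (left) and kibble (right); filled points passed at an adjusted p under 0.05. All 7 GAPDH probes lie below 0 in both diets, and the 3 dimmest passed on kibble.

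Between weeks 3 and 6 no member was called in either diet, although with array medians in place of loess SLC2A1 was called on meat (0.43, adjusted p = 0.049). On meat, where 2.23% of all genes and transcripts were called (580, and 162 to 708 without single arrays), week 6 minus week 3 was 0.20 ± 0.12 for SLC2A1, -0.024 ± 0.12 for LDHB and 0.24 ± 0.13 for GAPDH (adjusted p = 0.373, 0.944 and 0.325). On kibble, where 0.0347% were called, the differences were 0.13 ± 0.12, -0.096 ± 0.12 and 0.055 ± 0.13 in the same order (adjusted p = 0.601, 0.735 and 0.867). At the brightest SLC2A1 probe the ratios were narrow on the 4 kibble arrays, from 0.23 to 0.35, and wider on the 4 meat arrays, from -0.28 to 0.27. Probe A_11_P0000026893 showed the reverse, with -0.37 to 0.18 on kibble and 0.065 to 0.37 on meat. The interaction of diet and these weeks was 0.071 ± 0.14 for SLC2A1, 0.071 ± 0.15 for LDHB and 0.18 ± 0.16 for GAPDH. In it limma called 0 of 25951 (0%), with 2522 at an unadjusted p under 0.05.

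Levels in single channels give the order of the 8 groups, each read in 7 or 8 channels. They combine each array's loess-normalised ratio with its mean intensity of both channels. Only that mean intensity was quantile-normalised between arrays. For SLC2A1 the mean log2 intensity was highest on meat at week 0 (9.13 ± 0.58, SD), followed by meat at weeks 6 (9.07 ± 0.28), 3 (8.97 ± 0.30) and 9 (8.87 ± 0.20). Kibble came below, at weeks 0 (8.82 ± 0.32), 6 (8.77 ± 0.22), 9 (8.68 ± 0.29) and 3 (8.55 ± 0.29). The other SLC2A1 probe, A_11_P0000026893, did not keep this order. There kibble at week 0 stood highest (7.46 ± 0.38), above meat at week 0 (7.35 ± 0.18). Kibble at week 9 (7.31 ± 0.41) stood above meat at week 3 (7.26 ± 0.15). For LDHB, as for the brightest SLC2A1 probe, all 4 meat groups stood above all 4 kibble groups, from 13.36 ± 0.20 on meat at week 9 to 12.70 ± 0.31 on kibble at week 6. GAPDH was lowest on meat at week 3 (15.50 ± 0.32) and highest on kibble at week 0 (16.09 ± 0.28). At the brightest probes, no pair of neighbours in any of the 3 orders differed by more than the smaller of their SDs, and channel ranges of meat and kibble overlapped at every week for all 3 genes. Weeks 0 and 9 were never on 1 array with weeks 3 or 6, so an order across these pairs of weeks rests on levels from different arrays.

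**Figure D4:**
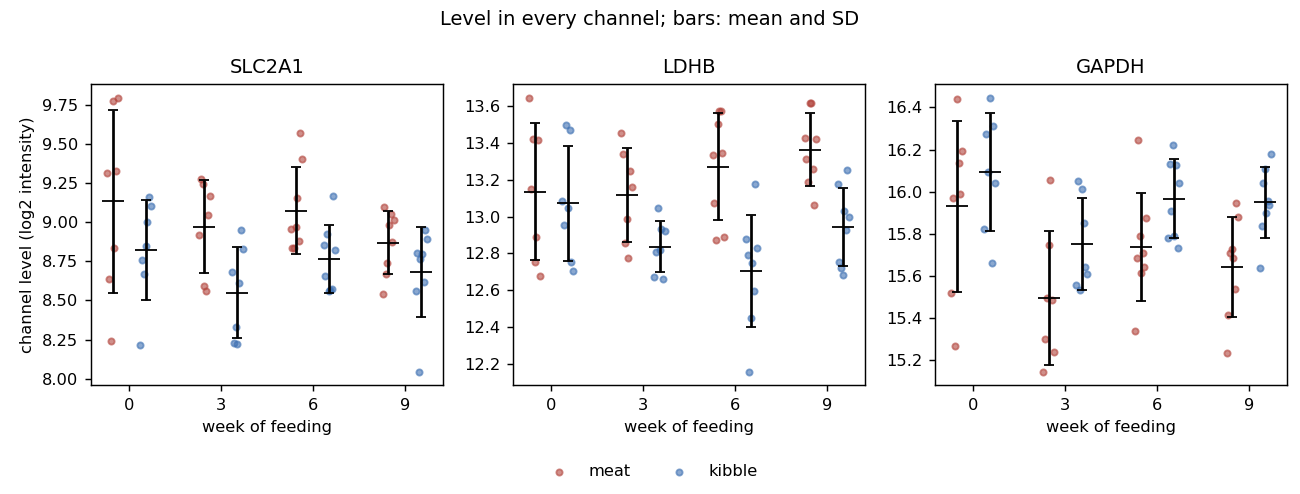
Log2 intensity of the brightest probe of each gene in every channel by week of feeding, with meat left of kibble; points are channels and bars the mean and SD (7 or 8 channels a group). Meat lies above kibble on average for SLC2A1 and LDHB and below it for GAPDH at each week, with overlapping channels.

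Other genes of glucose handling came from a list of 84 symbols, of which 15 had a named probe and 13 passed the filter, the members included. In the mean of weeks 3, 6 and 9, 2 of the 13 were called higher on meat (SLC2A1 and LDHB) and 2 lower (GAPDH and PKLR). Over all genes and transcripts tested, 6.96% were called higher and 7.96% lower. PKLR was the only gene of the list called beside the members. The median difference of the 13 was 0.00075, against 4.5e-05 over all genes and transcripts tested. PKLR, the pyruvate kinase of liver and red cells, differed by -0.29 ± 0.082 (adjusted p = 0.0158) and at week 3 by -0.50 ± 0.13 (adjusted p = 0.0284).

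Of the 4 glycolysis genes measured, TPI1, which interconverts the triose phosphates one step before GAPDH, differed by -0.024 ± 0.066 (adjusted p = 0.884). ALDOC, an aldolase that splits fructose 1,6-bisphosphate, differed by 0.00075 ± 0.066 (adjusted p = 0.997). Neither was called, and their difference from GAPDH was not tested. The sodium-coupled glucose transporters SLC5A1 and SLC5A2 differed by 0.024 ± 0.034 and -0.031 ± 0.036 and were not called. DLD, the lipoamide dehydrogenase of the pyruvate dehydrogenase complex, differed by 0.056 ± 0.049 (adjusted p = 0.546). PCK1 and SLC37A4, of glucose production and glucose 6-phosphate transport, differed by 0.063 ± 0.045 and -0.020 ± 0.10. The regulators HIF1A and MYC, which can induce SLC2A1, differed by -0.070 ± 0.057 (adjusted p = 0.50) and 0.14 ± 0.064 (adjusted p = 0.153). In single weeks the list genes called were SLC2A1 and LDHB at week 6 and PKLR at week 3.

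**Figure D5:**
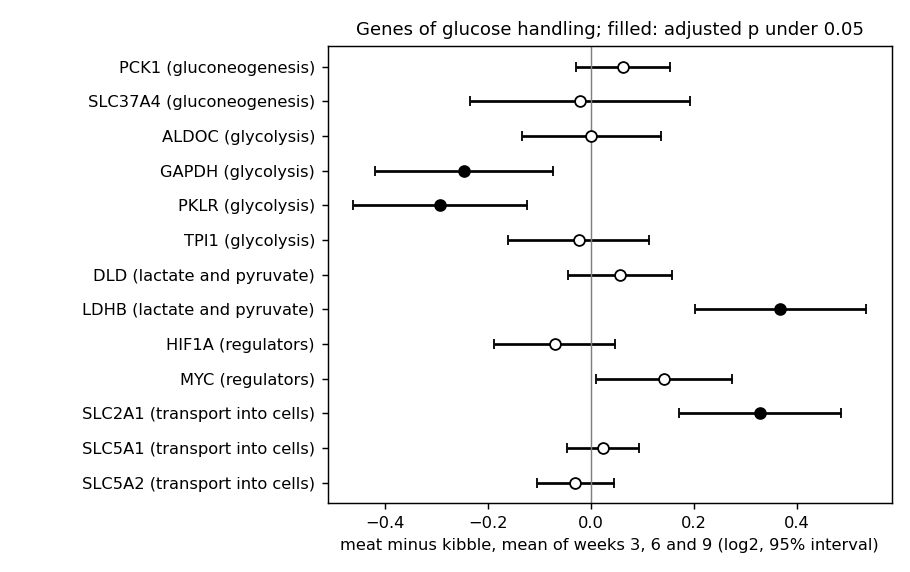
Fitted meat minus kibble difference (log2, mean of weeks 3, 6 and 9) with its 95% interval for the 13 measured genes of glucose handling, each with its step; filled points passed at an adjusted p under 0.05. SLC2A1 and LDHB lie above 0, GAPDH and PKLR below, and the intervals of 8 of the other 9 genes hold 0.

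Markers of blood cell types also differed between the diets in the mean of weeks 3, 6 and 9. On meat, 4 of 4 measured monocyte genes (-0.69 to -0.39), 6 of 6 platelet genes (-1.31 to -0.74), 5 of 6 cytotoxic cell genes and 3 of 5 neutrophil genes were called lower. Over all genes and transcripts 7.96% were called lower. Among 3 T cell genes, CD28 (0.25 ± 0.054, adjusted p = 0.00276) and CD40LG (0.33 ± 0.094, adjusted p = 0.0173) were higher, and CD4 differed by 0.063 ± 0.18 (adjusted p = 0.89). The mean ratio of the 4 monocyte genes was negative on all 11 arrays, at -1.14 to -0.39 at week 3, -0.57 to -0.034 at week 6 and -0.64 to -0.25 at week 9. The mean of the 3 T cell genes was positive on all 4 arrays of week 6 (0.12 to 0.36) and lay on both sides of 0 at weeks 3 and 9. The mean of the 5 neutrophil genes lay on both sides of 0 at week 3 (-2.58 to 0.48), week 6 (-1.84 to 0.099) and week 9 (-1.76 to 0.73). The means of the 6 cytotoxic and of the 6 platelet genes were negative on all arrays of weeks 3 and 6. At week 9 they ran from -0.29 to 0.17 and from -1.85 to 0.050. MS4A1 of B cells differed by 0.014 ± 0.19 (adjusted p = 0.98), TYMS of cycling cells was higher by 0.38 ± 0.081 (adjusted p = 0.00213), and of 3 basophil and mast cell genes MS4A2 alone was called (-1.17 ± 0.11, adjusted p = 2.96e-07). The part of these cell types in the SLC2A1, LDHB and GAPDH differences was not tested. At week 0 the mean ratio of the platelet genes was -0.78 to -0.44 on the 3 arrays, and that of the 3 basophil and mast cell genes -0.68 to -0.53. The other means lay on both sides of 0 there: monocyte -1.35 to 0.36, T cell -0.19 to 0.32, cytotoxic -0.46 to 0.39 and neutrophil -1.43 to 0.13. At week 9, 3 of 6 platelet genes were higher than at week 0 on meat (mean ratio 0.15 to 1.17 over arrays) and 4 of 6 on kibble (0.40 to 1.34). Over all genes and transcripts 8.01% on meat and 13.6% on kibble were called there, in either direction.

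Likeness over the 30 arrays was taken as Pearson's r of log ratios with each of the 1087 other named genes, which share arrays, dyes and slides with the members. SLC2A1 was most like USP11 (r = 0.82), a deubiquitinase, ADAMTS10 (0.73), a secreted metalloprotease, and ATP2A2 (0.71), the calcium pump of the endoplasmic reticulum. It was least like YBX3 (-0.78), a cold shock domain protein, PTGS1 (-0.74), the constitutive cyclooxygenase, and CLU (-0.73), clusterin. PTGS1 and CLU stand on the platelet list, and both were lower on meat (-1.19 ± 0.19 and -0.79 ± 0.10).

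LDHB was most like RPS27A (r = 0.84), a ribosomal protein fused to ubiquitin, ZC3H15 (0.80), a zinc finger protein, and NPM1 (0.78), nucleophosmin. RPS27A was higher on meat by 0.31 ± 0.053 (adjusted p = 0.00038). The lowest correlations of LDHB were with FTH1 (-0.83), the ferritin heavy chain, LOC403631 (-0.82) and DAPK1 (-0.81), a death-associated kinase. FTH1 was lower on meat by -0.58 ± 0.13 (adjusted p = 0.00416).

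GAPDH was most like SERPINA1 (r = 0.89), alpha-1-antitrypsin, POR (0.87), the reductase that serves cytochromes P450, and VIM (0.87), vimentin. Its lowest correlations were with FGFR1OP2 (-0.75), RPL23 (-0.70), a ribosomal protein, and MATR3 (-0.69), a nuclear matrix protein. VIM was lower on meat by -0.23 ± 0.072 (adjusted p = 0.0317), and SERPINA1 differed by -0.39 ± 0.19 (adjusted p = 0.187). Among the members themselves r was -0.60 between LDHB and GAPDH, 0.15 between SLC2A1 and LDHB and 0.019 between SLC2A1 and GAPDH. LDHB and GAPDH thus tended to opposite sides over the arrays, and SLC2A1 followed neither.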

How the data were processed

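RNA of peripheral blood mononuclear cells was amplified, labelled with Cy3 or Cy5 and hybridised to Agilent 2-colour arrays, per the labels' protocols. The deposited scanner files, which Agilent Feature Extraction (version 10.10.1.1) wrote, hold each spot's median intensity and local background, per the file headers. The authors' deposited matrix holds normalised log2 ratios made with limma, per the submitters' processing notes, and correlated at 0.834 to 0.991 per array with the ratios used here; its columns had medians of -0.0079 to 0.0045.

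Intensities were background-corrected (normexp, offset 50), and log2 ratios were normalised by loess within arrays. Control spots and 979 spots with outlier flags were left out. A probe was kept if at least 7 of 60 channels were well above background (31692), and the brightest probe stood for each gene or unnamed transcript (25951, of which 1088 had a symbol). limma 3.58.1 in R 4.3.3 fitted a term per group and a dye term (23 residual degrees of freedom), two-sided, with Benjamini-Hochberg adjustment within each of 12 comparisons at 0.05. All probes were fitted in the same way for the probe values. On simulated data, 90 of 100 differences of 0.5 and 99 of 100 of 1 (log2) were called in the mean of weeks 3, 6 and 9 over 25951 genes and transcripts. There were 11 false calls. The simulated noise was independent between arrays, and both sizes exceed the members' differences, so these rates do not describe the members. Alternatives covered background, normalisation, filter, dye, slide, replicate number, array weights and single arrays. The number of arrays limits the precision. Genes named are the members, the measured glucose list, marker lists and, per member, the 3 highest and 3 lowest correlated named genes; members and lists were chosen with earlier results of these data known. The result of 1 marker list is not reported here. Replicate numbers were checked as pairs through the deviations from the fit of arrays of other groups. With the same number these correlated at a median of -0.017 (123 pairs, -0.78 to 0.63). With other numbers the median was -0.033 (282 pairs, -0.56 to 0.64). RNA shared by arrays would raise or lower such a correlation according to its dyes, so the check cannot decide whether the numbers pair the arrays.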

Additional observations from a re-analysis of the deposited data

Results flagged for a closer look

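Of 42 sets of 4 to 8 values of the brightest probes tested for a value far from the others, 1 was marked, and chance marks about 1 in 20. The SLC2A1 level on kibble at week 9 was 8.05 on the first array of week 9 against week 0 (slide 1), where the other 7 channels of that group lay between 8.56 and 8.95. This is the array with the fewest probes well above background. Without it and the first meat array of slide 1, the SLC2A1 difference between diets in the mean of weeks 3, 6 and 9 was 0.31 (adjusted p = 0.00242).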

How the results depend on the processing

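Of 1638 values of SLC2A1, LDHB and GAPDH in 36 results under the alternatives, 1546 kept direction and side of the threshold. In the mean of weeks 3, 6 and 9, SLC2A1 was called under all 16 other alternatives (0.23 to 0.42) and without each of the 30 arrays (0.29 to 0.35), and LDHB without each array (0.30 to 0.40) and under 15 of the 16, all but median centring in place of loess (0.44, adjusted p = 0.069). GAPDH ran from -0.28 to -0.19 without single arrays, and its call was lost under median centring (-0.17), no filter on dim probes (-0.25), the mean of its probes (-0.22), the replicate number as a block (-0.24, adjusted p = 0.0545), the arrays of the compared pairs alone (-0.26) and a dye term per scan session (-0.25). The cause was not tested. The replicate block changed the call of no other member in that comparison (SLC2A1 0.33, LDHB 0.36). Genes and transcripts called there numbered 3871, against 1079 with median centring, 2392 with the compared pairs alone and 2794 to 4252 without single arrays.

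The week 6 call of SLC2A1 was lost with no dye term (0.31), slide as a fixed block or the pairs alone (0.38 each) and a dye term per scan session (0.37), and that of LDHB with median centring (0.59) and slide as a fixed block or the pairs alone (0.43 each). Calls were gained in 11 values, all given in the text above: GAPDH between weeks 0 and 9 on meat (3) and kibble (3), GAPDH and LDHB at week 3 (1 and 2), and SLC2A1 under median centring between weeks 0 and 9 on kibble and weeks 3 and 6 on meat. Genes and transcripts called with the compared pairs alone numbered 0 at week 3 and 1 at week 6.

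Signs turned in results that were not called. For LDHB these were week 0 (-0.067 with median centring, -0.062 with slide as a fixed block or the pairs alone, -0.064 to 0.33 without single arrays), week 6 minus week 3 on meat (0.26 with median centring, 0.0035 with scaling between arrays, 0.083 with no dye term, 0.0011 with array weights, -0.086 to 0.0043 without single arrays), week 9 minus week 0 on meat (-0.00046 with scaling, -0.025 to 0.13 without single arrays) and its interaction (-0.011 to 0.31 without single arrays). For GAPDH they were week 0 (0.05 with slide as a fixed block or the pairs alone, 0.022 with array weights, -0.23 to 0.11 without single arrays), week 9 (0.086 with median centring), the change from week 0 (0.15 with median centring) and the week 9 interaction (0.011 with no background correction, 0.0014 with Feature Extraction signals, 0.020 with the deposited log2 ratios, 0.41 with median centring, 0.050 with the mean of its probes, -0.18 to 0.066 without single arrays). For SLC2A1 they were the change from week 0 (-0.0087 with slide as a fixed block), the week 9 interaction (-0.11 with no dye term, -0.14 with slide as a fixed block, -0.052 with a dye term per session, -0.033 without the first 2 arrays of slide 1, -0.056 to 0.15 without single arrays), the week 6 interaction (-0.11, -0.0069 and -0.055 under the first 3 of these) and probe A_11_P0000026893 from week 0 to week 9 on meat (-0.089 to 0.011 without single arrays). Comparisons over time could not be fitted from their own arrays alone, where dye and week coincide.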
